A study of Arabidopsis thaliana with 12 samples.

Results

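The UDP-glycosyltransferase (UGT) genes of Arabidopsis thaliana were followed in whole seedlings of the single mutants sdg8 and hub2, of the double mutant sdg8hub2 and of wild type, with 3 arrays in each of the 4 groups. A gene was taken as a member when its current symbol or a listed synonym is UGT followed by a number and a probe set of the array is annotated to it alone. UF3GT, which makes anthocyanins, was left out, as the selection rule asks. Of the 50 genes left, each read by 1 probe set, 42 had a mean signal of at least 20 intensity units over the 12 arrays and are the members, out of 13356 genes named on the array. Just inside that limit were UGT71B8 with a mean signal of 25.5, UGT73D1 with 24.6 and UGT84A1 with 20.1, and just outside it were UGT71B5 with 18.1, UGT73C2 with 17.6 and UGT84B1 with 17.1.

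All groups had the Columbia background and were harvested as seedlings at 6 days, after growth at 22 °C in days of 16 h light and nights of 8 h. SDG8 is an enzyme that methylates histone H3, and HUB2 is a ubiquitin ligase acting on histone H2B. The sources used here do not give the mutant alleles, and the transcripts of SDG8 and HUB2 themselves were not checked. Per the series' design text, replicate arrays come from plants grown independently.

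UGT enzymes move a sugar, usually glucose, from a UDP-sugar to a small acceptor molecule. In plants the acceptors include hormones such as auxin, cytokinin, abscisic acid and salicylic acid, phenolics such as flavonols and lignin precursors, sterols, and foreign chemicals. The sugar makes the acceptor more soluble and usually inactive, and lets it be stored in the vacuole. The number after UGT names a sequence group and the letter a subgroup, so genes of 1 number are related in sequence, although their acceptors can differ.

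The expression arrays read whole seedlings, and there fewer cells of a type and less RNA per cell cannot be told apart. RCA, the rubisco activase gene of green tissue, had a signal between 22395 and 31599 on all 12 arrays, and EXPA7, an expansin gene of root hairs, between 125 and 269.8. These are the only genes of the seedling, flower and seed marker lists that the annotation names, so the tissue label could be checked no further. RCA rose in sdg8 (log2 difference 0.30, adjusted p = 0.0140), and EXPA7 fell by 0.66 on the log2 scale in sdg8hub2 (adjusted p = 0.0216), both against wild type by limma. Among the arrays, hub2 array 2 stood apart in the ratio of the 3' to the 5' actin control probe sets, at 2.06 on the log2 scale against 0.996 to 1.53 on the other 11, and had the lowest array weight, 0.589. The part of the RCA and EXPA7 shifts in the results on the UGT genes was not tested.

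Differences were tested on the log2 scale with limma across all 18196 probe sets above a filter on low signal, and a gene is said to have changed, risen or fallen where its Benjamini-Hochberg adjusted p over all of them was under 0.05. Of the 42 members, 40 passed the filter, while UGT73D1 and UGT84A1 did not. Signals are the authors' linear intensities. A signal belongs to its own probe set and ranks no gene against another.

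Over all 7 comparisons, 16 of the 40 genes tested changed in at least 1 and 24 changed in none. Precision differed with signal. Genes were split at a mean signal of 100, here the mean of the log2 values turned back to signal. The SD of the log2 signal within groups had a median of 0.18 over the 30 genes from 100 up. Over the 10 genes below, it was 0.97. UGT73C1, with an arithmetic mean of 107 over the arrays, was among these 10. Of the 36 calls, 31 were made among the first 30 genes and 5 among the other 10. Those 5 calls were of UGT73C1 and UGT74F1. Over all 18196 probe sets tested there were 16305 calls in the 7 comparisons, and the median SD was 0.22. The share of all probe sets called in at least 1 comparison is not given here.

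In sdg8 against wild type 6 UGT genes fell and 0 rose. UGT88A1 had the smallest adjusted p, at a signal 1.91-fold lower, and UGT71C2, UGT74B1, UGT72E1, UGT87A2 and UGT74D1 fell by 1.29-fold to 1.75-fold. They belong to groups 71, 72, 74, 87 and 88, and groups 73, 76, 78, 80, 84 and 85 had no call. The 6 are 15% of the 40 genes tested, beside 14.3% of all probe sets that changed in this comparison, while 6.41% of all probe sets rose and 7.86% fell. Without any overlap between the 3 arrays of each group, 7 of the 40 genes lay higher and 10 lower in sdg8, beside 15% and 16.6% of all probe sets. The median log2 difference was -0.0069 over the 40 genes and -0.024 over all probe sets, and 20 of the 40 differences were positive.

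UGT88A1 encodes an enzyme that glucosylates flavonols in vitro. It had signals of 1315, 1206 and 1175 on the sdg8 arrays, against 2318, 2301 and 2436 on the wild-type arrays. The hub2 arrays gave 2119, 2250.1 and 2356, and the sdg8hub2 arrays 2684, 1766 and 2020.4. All 3 sdg8 arrays lay below every array of the other 3 groups. The log2 difference between sdg8 and wild type was -0.93 (SE 0.11, limma adjusted p = 4.77e-06).

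UGT72E1 glucosylates aldehydes of lignin synthesis. It gave 947, 869.7 and 745 in sdg8, against 1177, 1217 and 1335 in wild type, without overlap. The hub2 arrays, at 1052, 937 and 1180.3, reached down to the highest sdg8 array. Its log2 difference was -0.55 (SE 0.12, limma adjusted p = 0.00365). With sdg8 array 1 as the lone sdg8 array it was -0.39 and did not pass (adjusted p = 0.217). Its relative UGT72E2, which glucosylates monolignols, had 1085, 955 and 995 in sdg8, against 916, 782 and 890.4 in wild type, and its hub2 arrays gave 739, 869 and 788. That difference, 0.23 on the log2 scale, did not pass.

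UGT74B1 catalyses the glucosyl transfer step in the synthesis of glucosinolates, the sulfur-rich defence compounds of the cabbage family. Its signals were 407, 327 and 332 in sdg8, against 558, 693 and 461 in wild type. Every sdg8 array lay below every wild-type array, and the log2 difference was -0.67 (SE 0.16, limma adjusted p = 0.0077). It did not pass without wild type replicate 2, without the variance trend or with sdg8 array 1 alone.

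UGT74D1, an auxin glucosyltransferase gene, had 833, 911 and 827 in sdg8, against 1140.1, 1258 and 935 in wild type. Its log2 difference of -0.36 (SE 0.12, limma adjusted p = 0.0452) was lost in 11 of 24 alternative settings. UGT87A2, a gene known for a role in flowering time, had 734, 763 and 721 in sdg8, against 1139, 918 and 959.9 in wild type, a log2 difference of -0.44 (SE 0.11, limma adjusted p = 0.00769). It did not pass without wild type replicate 1 or with sdg8 array 1 alone. These 2 genes had sdg8 arrays that lay close together, below all wild-type arrays.

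UGT71C2 had signals of 112, 106 and 98.0 in sdg8, against 199, 161 and 194 in wild type, and the groups did not overlap. Its log2 difference was -0.81 (SE 0.22, limma adjusted p = 0.0149). It did not pass without wild type replicate 1, without wild type replicate 3 or with sdg8 array 1 alone. Its neighbour in the gene order, UGT71C1, had a log2 difference of -0.015 that did not pass.

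Among genes that did not pass, UGT85A4 came nearest, with 419.6, 289 and 351 in sdg8 and 238, 251 and 255 in wild type. All sdg8 arrays lay above wild type. It passed in 9 of 24 alternatives, of the filter, the scale, the fit and the arrays used. Among them were median centring (log2 difference 0.56, adjusted p = 0.0358) and quantile normalization (0.54, adjusted p = 0.0414), so that the split was 1 risen and 5 fallen genes with median centring and 1 and 6 with quantile normalization. For 27 of the 40 genes the 95% interval of the sdg8 difference lay within a 2-fold change either way, and for 13 within 1.5-fold. The count of changed genes was 3 without wild type replicate 1 and 2 with sdg8 array 1 alone, of which 1, UGT88A1, was among the 6 and the other was UGT73B5.

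**Figure D1:**
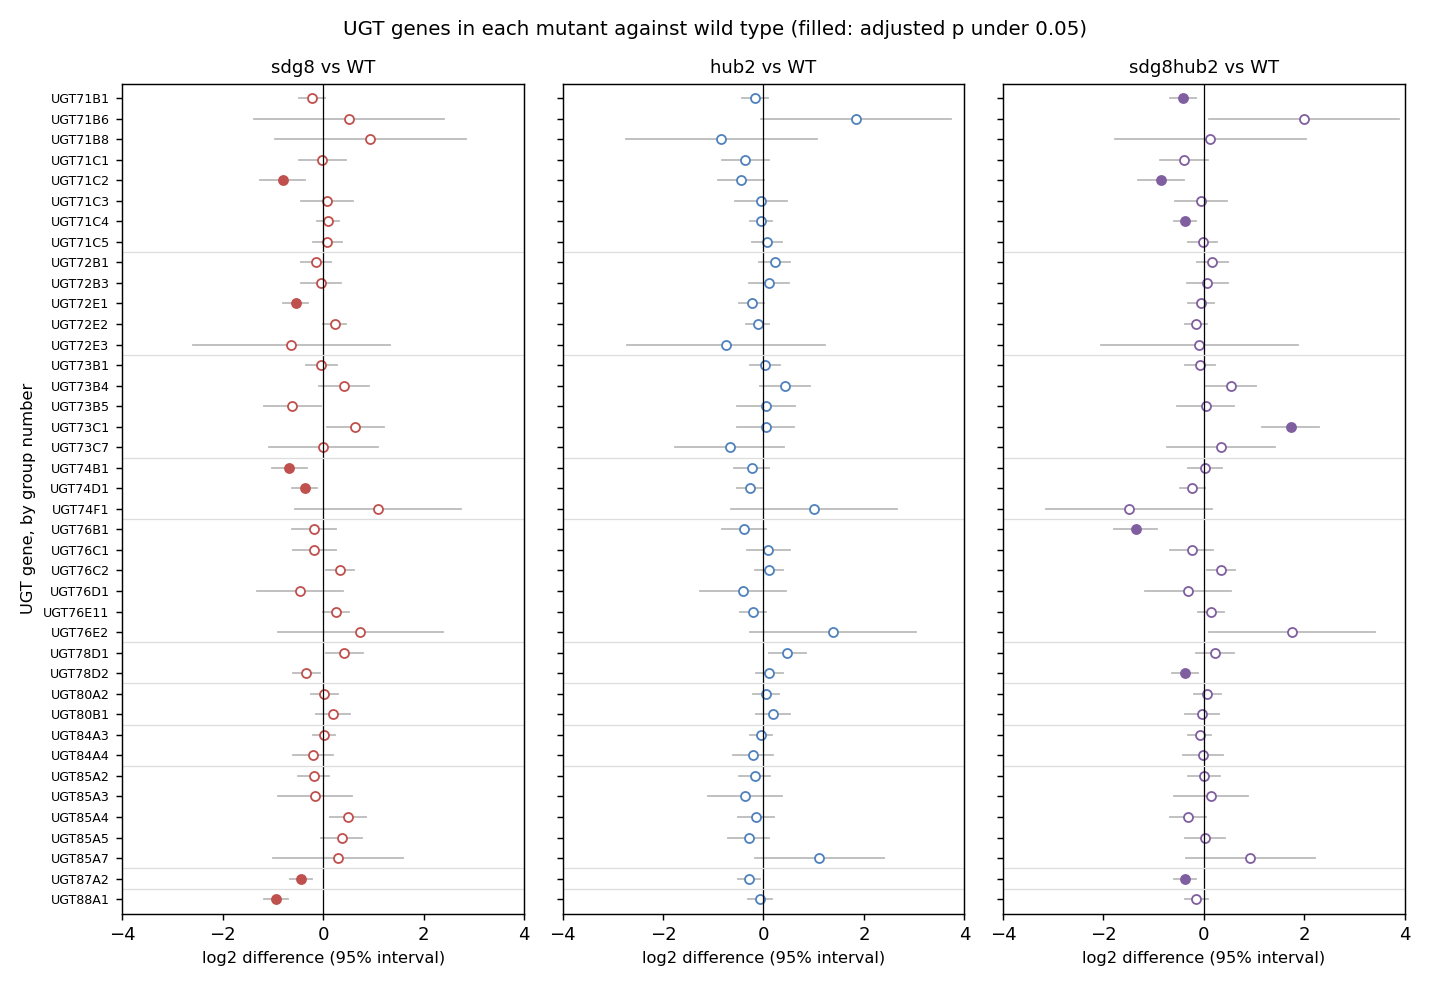
Log2 difference (horizontal axis) of the 40 UGT genes tested in sdg8, hub2 and sdg8hub2 against wild type, ordered by group number. Circles are limma estimates with 95% intervals, filled where the adjusted p was under 0.05: 6 genes fell in sdg8, 0 changed in hub2, and in sdg8hub2 6 fell and 1 rose.

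In hub2 against wild type 0 of the 40 UGT genes changed, beside 2.85% of all probe sets that did, 1.4% upward and 1.46% downward. The arrays did not overlap for 2 genes that lay higher and 4 that lay lower in hub2, beside 10.6% and 10.7% of all probe sets. At an unadjusted p under 0.05 limma gave 3 genes, and 0 were called in each alternative setting run for this comparison. These 3 were UGT87A2, UGT78D1 and UGT74D1. The median log2 difference was -0.061 over the 40 genes and 0.00033 over all probe sets.

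UGT87A2 stood at 812, 838 and 812 on the hub2 arrays, all below its 3 wild-type arrays given above. Its log2 difference was -0.29 with a 95% interval of -0.51 to -0.063 and a limma adjusted p of 0.184. UGT78D1 attaches rhamnose to flavonols. Its hub2 signals of 377, 449 and 331 overlapped those of wild type, 289, 353 and 206. Its log2 difference was 0.47 (95% interval 0.10 to 0.84, limma adjusted p = 0.184).

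For 31 of the 40 genes the 95% interval of the hub2 difference lay within a 2-fold change, and for 22 within 1.5-fold. Wider intervals belonged to genes of low signal. For UGT71B6, an abscisic acid glucosyltransferase gene, 1 wild-type array read 2.87 while the others read 26.6 and 34.2. Its log2 difference between hub2 and wild type was 1.85, with a 95% interval of -0.047 to 3.74.

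In sdg8hub2 against wild type 7 UGT genes changed, of which UGT73C1 rose and 6 fell. UGT76B1 fell 2.57-fold and UGT71C2 1.81-fold, and UGT71C4, UGT87A2, UGT71B1 and UGT78D2 fell by 1.29-fold to 1.33-fold. Group 71 held 3 of these falls among its 8 genes, group 76 had 1 among 6, group 73 had the rise among 5, and groups 72, 74, 80, 84, 85 and 88 had no call. The 7 are 17.5% of the genes tested, beside 18.5% of all probe sets that changed, and 8.01% of all probe sets rose while 10.5% fell. The arrays did not overlap for 6 genes that lay higher and 7 that lay lower in sdg8hub2, beside 15.3% and 19.8% of all probe sets. The median log2 difference was -0.030 over the 40 genes and -0.051 over all probe sets.

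UGT73C1, which acts on cytokinins and on the explosive TNT, stood at 186, 204 and 224 in sdg8hub2, against 43.0, 74.3 and 71.9 in wild type. The hub2 arrays gave 66.5, 58.8 and 65.2, and the sdg8 arrays 116, 104 and 72.5. All 3 double-mutant arrays lay above all other 9. The log2 difference from wild type was 1.73 (SE 0.27, 3.33-fold, limma adjusted p = 9.06e-05), and on the log2(intensity + 64) scale it was 1.09. In sdg8 the log2 difference from wild type was 0.64, which did not pass (limma adjusted p = 0.130).

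UGT76B1 glucosylates salicylic acid and other defence-related acids. It had 90.2, 109.5 and 84.5 in sdg8hub2, against 201, 300.3 and 234 in wild type. The sdg8 arrays gave 264, 225 and 162, and the hub2 arrays 156, 205 and 194, so that the double mutant alone lay below all other arrays. Its log2 difference from wild type was -1.36 (SE 0.21, limma adjusted p = 6.70e-05).

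UGT71C2 stood at 122, 88.3 and 97.0 in sdg8hub2 and fell by 0.86 on the log2 scale (SE 0.22, limma adjusted p = 0.00735), beside the fall of 0.81 in sdg8 given above. UGT87A2 had 861, 752 and 704 and a log2 difference of -0.38 (limma adjusted p = 0.0157), beside -0.44 in sdg8. These 2 genes were called in both comparisons, which share the wild-type arrays. UGT71C2, UGT73C1 and UGT76B1 were called in every alternative setting run for this comparison.

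UGT71C4 had 816, 719 and 796 in sdg8hub2, against 971, 1057 and 985 in wild type, and fell by 0.37 on the log2 scale (SE 0.11, limma adjusted p = 0.0163). Its arrays in sdg8, at 1114, 1089 and 1036, and in hub2, at 904, 1131 and 889, lay above every double-mutant array. UGT71B1 had 518, 499 and 600.1 in sdg8hub2, against 705, 715 and 717 in wild type, and fell by 0.41 (SE 0.12, limma adjusted p = 0.0252). In both genes the double-mutant arrays lay below every wild-type array.

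UGT78D2, the flavonoid glucosyltransferase of flavonol and anthocyanin synthesis, had 353, 326 and 389 in sdg8hub2, against 515, 448 and 423 in wild type. It fell by 0.38 on the log2 scale (SE 0.13, limma adjusted p = 0.0453). The sdg8 arrays, at 369, 388 and 339, also lay below wild type, but that difference of -0.34 did not pass, while the hub2 arrays stood at 455, 551 and 496.

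The modest falls depended on the scaling and on single arrays. With median centring 4 genes were called, 2 risen and 2 fallen, and with quantile normalization 2 rose and 4 fell, in place of 1 and 6. The gene added by both was UGT76C2, a cytokinin glucosyltransferase gene, at a log2 difference of 0.42 with median centring. The count was 3 without sdg8hub2 replicate 2 and 4 without wild type replicate 1 or wild type replicate 2. UGT78D2 was lost in 11 of 23 alternatives, UGT71B1 in 8, UGT87A2 in 4 and UGT71C4 in 3.

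**Figure D2:**
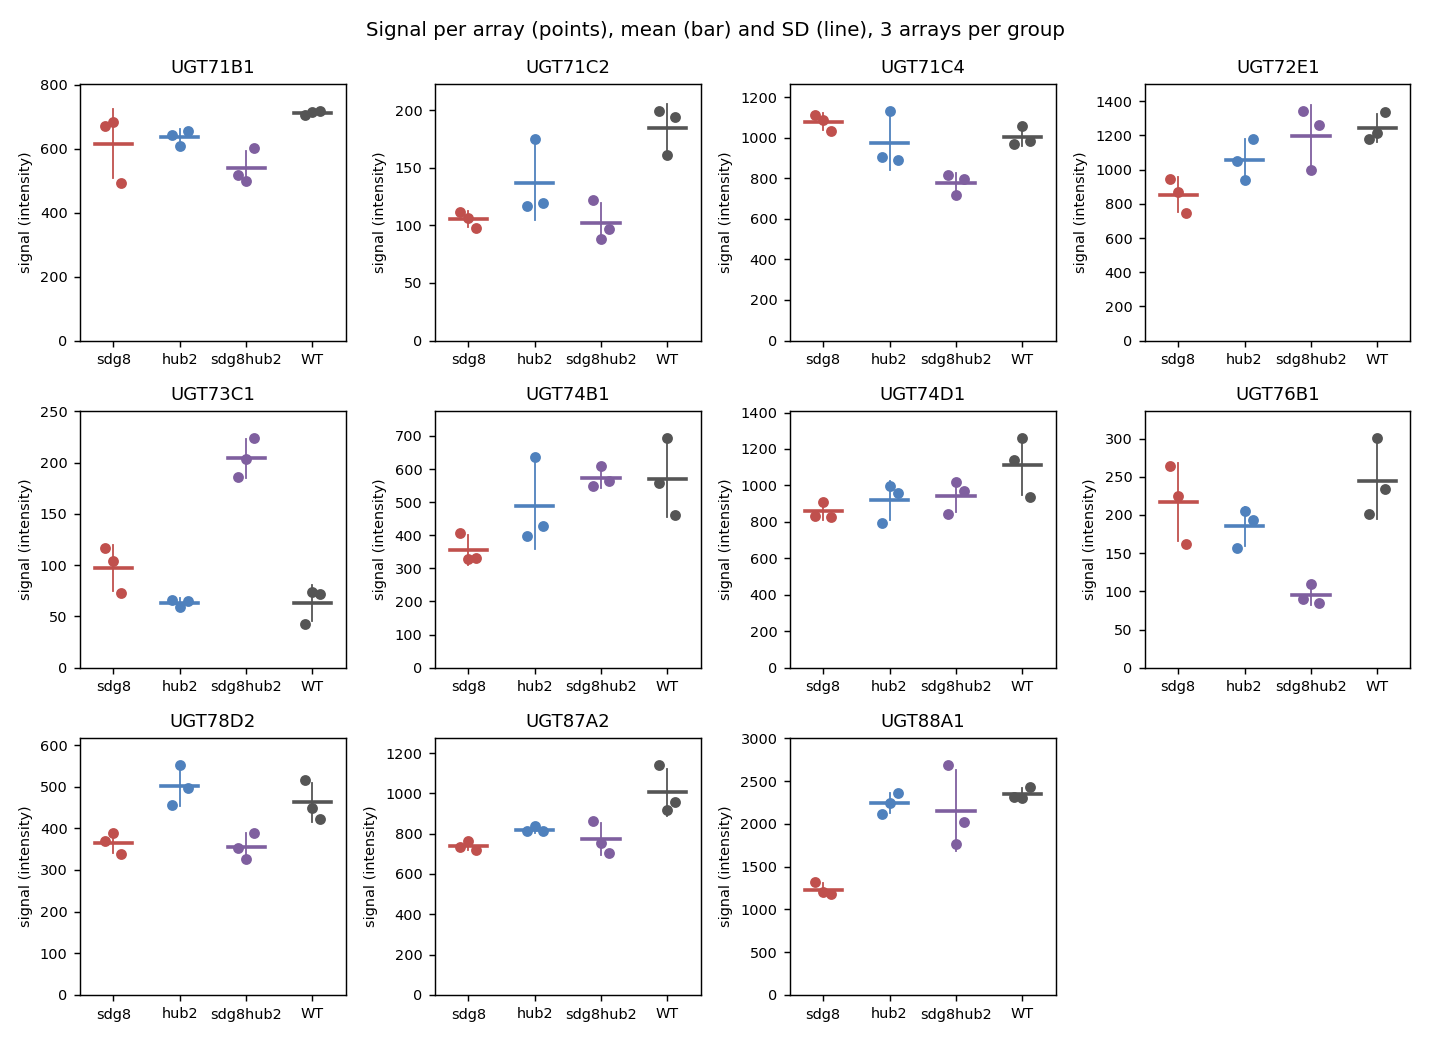
Signal (intensity units, vertical axis from 0) on each array for the 11 UGT genes that changed in a mutant against wild type. Points are arrays, bars means and vertical lines SDs (n = 3 per group). The sdg8 arrays of UGT88A1 and the sdg8hub2 arrays of UGT76B1 lie below all other arrays. The sdg8hub2 arrays of UGT73C1 lie above all others. The interactions of UGT76B1 and UGT73C1 did not pass.

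The double mutant was next set against sdg8, which asks what loss of HUB2 does where SDG8 is already lost. Of the 40 genes 4 were higher and 5 lower, 22.5% of those tested, beside 14.4% of all probe sets, of which 6.7% were higher and 7.72% lower. The arrays did not overlap for 6 genes higher and 5 lower in sdg8hub2, beside 14% and 15.5% of all probe sets. UGT88A1 was 1.73-fold higher in sdg8hub2 (log2 difference 0.79, SE 0.11, limma adjusted p = 5.74e-05), UGT74B1 1.62-fold and UGT72E1 1.40-fold, with the array values of sdg8hub2 for UGT74B1 at 549, 608 and 565 and for UGT72E1 at 1342, 996 and 1259. UGT73C1 was 2.13-fold higher. In each of these 4 genes every double-mutant array lay above every sdg8 array. For UGT88A1, UGT74B1 and UGT72E1 the same sdg8 arrays gave the fall from wild type, so the calls are linked.

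Lower in sdg8hub2 than in sdg8 were UGT76B1 (2.26-fold, limma adjusted p = 0.000519), UGT85A4 (1.76-fold), UGT71C4 (1.39-fold), UGT72E2 (1.31-fold) and UGT74F1. UGT85A4 had 229, 192 and 177 in sdg8hub2, against 419.6, 289 and 351 in sdg8. UGT72E2 had 866, 713 and 747 in sdg8hub2, against 1085, 955 and 995 in sdg8. The count of changed genes was 5 without the variance trend and 4 with sdg8 array 1 alone.

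UGT74F1, a salicylic acid glucosyltransferase gene, had 37.6, 4.81 and 5.90 in sdg8hub2, against 43.7, 84.4 and 63.0 in sdg8. The hub2 arrays gave 48.5, 75.7 and 52.1, and the wild-type arrays 71.6, 37.0 and 8.93. Only the double mutant had a group mean under the filter value of 18.6, at 10.2 on the log2 scale turned back to signal, so that the size of the log2 differences rests on 2 arrays near background. On the log2(intensity + 64) scale the difference was -0.68 from sdg8 and -0.63 from hub2. The log2 difference of -2.59 from sdg8 (limma adjusted p = 0.0320) did not pass in 8 of 23 alternatives, among them the one without sdg8hub2 replicate 2 (adjusted p = 0.118).

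Against hub2, sdg8hub2 differed in 5 genes, 1 higher and 4 lower, 12.5% of those tested beside 17% of all probe sets, 7.17% higher and 9.85% lower. Without overlap, 3 genes lay higher and 5 lower in sdg8hub2, beside 13.8% and 18.2% of all probe sets. UGT73C1 was 3.21-fold higher (log2 difference 1.68, SE 0.27, limma adjusted p = 0.000165). UGT76B1 was 1.95-fold lower, UGT78D2 1.41-fold and UGT71C4 1.25-fold, with UGT74F1 as the other. UGT71C4 was lost in 13 of 23 alternatives, and the count of changed genes was 2 without sdg8hub2 replicate 2 and 3 without sdg8hub2 replicate 3. With median centring or quantile normalization the split was 2 higher and 3 lower, with UGT76E11 added (log2 difference 0.43, adjusted p = 0.0304 with median centring). UGT76E11 also passed with the filter at the 50th percentile and without the variance trend.

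Between the single mutants 6 genes differed, 15% of those tested beside 16.1% of all probe sets, 7.34% higher and 8.73% lower in sdg8. In sdg8, 4 were higher and 2 lower, but 3 and 4 with the actin ratio as a covariate, where UGT72E1 and UGT72B1 were added as lower and UGT85A5 was lost. Without overlap, 7 genes lay higher and 4 lower in sdg8, beside 14% and 16.4% of all probe sets. UGT88A1 was 1.82-fold lower in sdg8 than in hub2 and UGT78D2 1.37-fold lower. UGT85A5 was 1.59-fold higher in sdg8, UGT85A4 1.57-fold, UGT76E11 1.38-fold and UGT72E2 1.27-fold. UGT85A5 had 396, 328 and 334 in sdg8, against 258, 204 and 206 in hub2. UGT76E11 had 415, 426 and 379 in sdg8, against 296, 289 and 302 in hub2. In both genes every sdg8 array lay above every hub2 array. UGT72E2 was lost in 8 of 24 alternatives, each left-out sdg8 array among them, and UGT85A5 in 6. Without sdg8 replicate 1, and with sdg8 array 1 alone, 3 genes differed.

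The interaction is the difference of sdg8hub2 from hub2 minus that of sdg8 from wild type, on the log2 scale. The same sdg8 arrays enter it and the comparisons above, so its calls are linked to theirs. It was called for 3 of the 40 genes, 7.5%, beside 6.46% of all probe sets. All 3 were positive, and over all probe sets 3.05% were positive and 3.41% negative. UGT88A1 had an interaction of 0.86 (SE 0.16, limma adjusted p = 0.00191), UGT72E1 of 0.72 (SE 0.17, adjusted p = 0.0131) and UGT74B1 of 0.93 (SE 0.23, adjusted p = 0.0175). In sdg8 each of the 3 lay below wild type, by log2 differences of -0.93, -0.55 and -0.67, whereas the differences of sdg8hub2 from hub2 were -0.077, 0.18 and 0.26. Against wild type, the double mutant differed by -0.15, -0.061 and 0.027 in these genes, and none passed. UGT73C1 and UGT76B1, which were called in sdg8hub2 but not in either single mutant, had interactions that did not pass. These were 1.04 (limma adjusted p = 0.120) for UGT73C1 and -0.78 (limma adjusted p = 0.129) for UGT76B1. Nearest to a call among the interactions that did not pass were UGT74F1 and UGT71C4, both negative. UGT74F1, with arrays near background, had -3.59 (SE 1.13, limma adjusted p = 0.0604), and UGT71C4 had -0.43 (limma adjusted p = 0.0986).

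Without the variance trend 0 genes were called for the interaction, with an adjusted p of 0.0506 for UGT88A1. UGT74B1 also did not pass without hub2 replicate 1 or without wild type replicate 2. With sdg8 array 1 alone UGT88A1 was the 1 gene called, and without wild type replicate 1 there were 5, 4 positive and 1 negative. Over the 40 genes, the log2 difference of sdg8 from wild type and that of sdg8hub2 from hub2, which share no array, had a Pearson correlation of -0.036 and a Spearman correlation of 0.11, and had the same sign in 22. Over the 24 genes above the median signal of the array the same correlations were 0.040 and -0.014, with the same sign in 13.

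**Figure D3:**
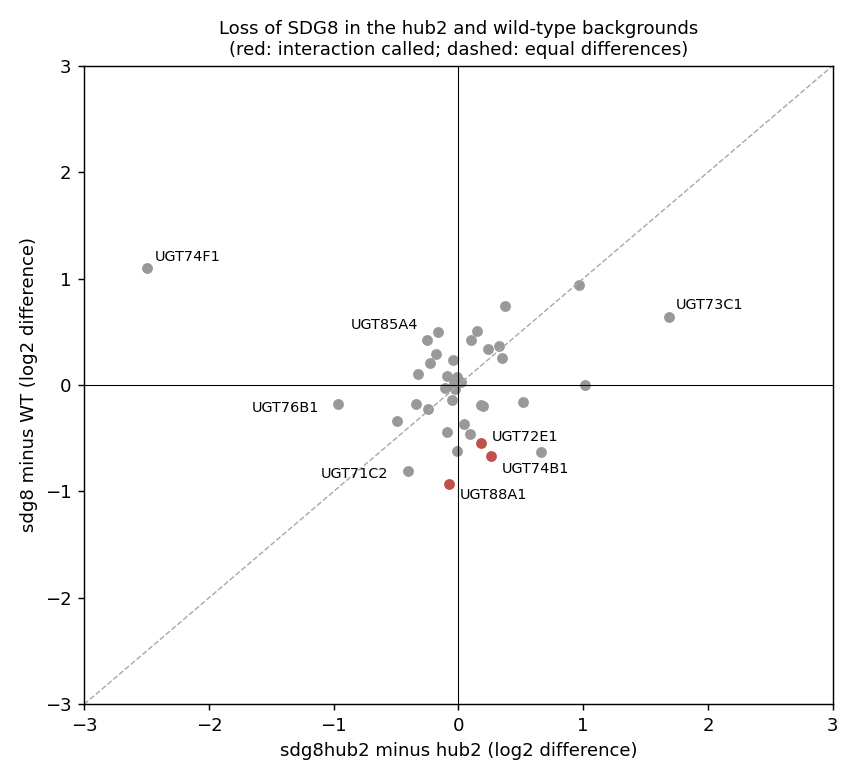
Log2 difference of sdg8hub2 minus hub2 (horizontal axis) against sdg8 minus wild type (vertical axis) for the 40 UGT genes tested, 1 point a gene, with equality as a dashed line. The 3 red genes, UGT88A1, UGT72E1 and UGT74B1, have a called interaction and lie below 0 on the vertical axis and between -0.077 and 0.26 on the horizontal one.

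Grouped by number, no group with over 1 gene tested had every gene called in a comparison against wild type. In group 71, with 8 genes tested, the log2 differences ran between -0.81 and 0.94 in sdg8 (median 0.083) and between -0.86 and 2.00 in sdg8hub2 (median -0.22). In group 85, with 5 genes, 0 changed in any mutant against wild type, and in the sterol glucosyltransferases of group 80 the differences lay between -0.035 and 0.20 in all 3. The hydroxycinnamate group 84 had 2 genes tested, UGT84A3 and UGT84A4, with differences between -0.22 and 0.019. Group 74 held both the glucosinolate gene UGT74B1 and the auxin gene UGT74D1, which fell in sdg8, and UGT74F1, which did not pass there (limma adjusted p = 0.413).

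Grouped by acceptor, of 6 genes of salicylic and abscisic acid glucosylation 0 changed in sdg8 and 1, UGT76B1, fell in sdg8hub2. Their median log2 differences were 0.30 and -0.054. In sdg8, UGT74F1, UGT71B8 and UGT71B6, with mean signals under 100, had differences of 0.51 or more, with SEs of 0.80, 0.91 and 0.91. UGT71C5, UGT73B1 and UGT76B1 had 0.087, -0.032 and -0.18 there. The sdg8 median of these 6 genes thus rests in part on genes of low precision. Of 4 auxin and cytokinin genes UGT74D1 fell in sdg8 and UGT73C1 rose in sdg8hub2, with medians of 0.078 and 0.058. Of 6 phenylpropanoid and monolignol genes UGT72E1 fell in sdg8 and 0 changed in sdg8hub2, with medians of -0.11 and -0.087. Of 2 flavonol genes UGT78D2 fell in sdg8hub2, and of 2 sterol genes 0 changed in either. UGT88A1, which acts on flavonols in vitro and fell in sdg8, was not on the flavonol list. The medians over all probe sets were -0.024 in sdg8 and -0.051 in sdg8hub2, and 14.3% and 18.5% of all probe sets changed there. Of 8 genes of the response to foreign chemicals and stress UGT87A2 fell in sdg8, and in sdg8hub2 UGT73C1 rose and UGT87A2 fell, with medians of 0.057 and 0.15. UGT73C1 is counted both here and among the auxin and cytokinin genes. UGT80A2, at 452 ± 46.4, 458 ± 27.3 and 466 ± 51.8 in sdg8, hub2 and sdg8hub2, against 443 ± 35.8 in wild type (SD, n = 3), was among the genes with no call in any comparison, as was UGT71C5, an abscisic acid glucosyltransferase gene, at 496 ± 82.2, 488 ± 46.2 and 460.1 ± 81.1, against 464 ± 25.2.

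Many UGT genes stand next to each other in the genome. By the gene order of a RefSeq table of the TAIR10.1 assembly, 9 pairs of tested members are direct neighbours. In 63 combinations of pair and comparison, both genes of a pair were called in 0, 1 of the pair in 10 and none in 53. UGT71C4 and UGT85A5 each belong to a pair on either side, so that 6 calls of single genes lie behind the 10. Of all probe sets, 2.85% (hub2 against wild type) to 18.5% (sdg8hub2 against wild type) were called in a comparison. The comparisons share arrays, and other neighbouring genes were not counted. Whether neighbours change together therefore cannot be read from these counts. UGT71C4 was lower in sdg8hub2 than in each other group, while UGT71C5 and UGT71C3 on either side had log2 differences between -0.14 and -0.010 there. UGT85A5 was higher in sdg8 than in hub2, while its neighbours UGT85A2 and UGT85A3 had differences of -0.0094 and 0.21 that did not pass.

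The beta-glucosidases, a family in which some enzymes remove glucose from conjugates, were read for 22 genes chosen by name, of which 15 passed the filter. Whether each acts on products of UGT enzymes was not checked. In sdg8 against wild type BGLU44, BGLU16 and BGLU25 fell, by 0.96, 0.54 and 0.61 on the log2 scale, and BGLU42 rose by 0.46, while 11 did not pass, and 14.3% of all probe sets changed there. In hub2 BGLU25 rose by 0.56 and 14 did not pass, beside 2.85% of all probe sets called. In sdg8hub2 BGLU44 fell by 0.71 and 14 did not pass, beside 18.5%. PYK10, an abundant root beta-glucosidase gene, did not pass in any mutant against wild type. The median log2 differences of the 15 genes were -0.17 in sdg8, 0.049 in hub2 and -0.16 in sdg8hub2, beside -0.024, 0.00033 and -0.051 over all probe sets. On the supply side USP, which makes UDP-sugars, was the 1 gene of 30 listed that the annotation names, and its log2 differences from wild type were 0.037 in sdg8, -0.14 in hub2 and 0.024 in sdg8hub2, none of which passed.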

How the data were processed

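Total RNA of 12 seedling samples was read on Affymetrix expression arrays. The authors deposited linear-scale intensities, made with MAS5 and affy per the submitters' processing notes, with versions not given in the sources used here. The mean intensity after trimming 2% at each end was 500 on all 12 arrays of the deposited table. By that measure the arrays already share a scale, but their median signals ran from 137 (sdg8hub2 array 1) to 155 (wild type array 1). No 2 arrays held identical values (0 identical pairs). Detection calls were not used here, and precision is limited by how many arrays there are.

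Intensities under the 1st percentile of the table (1.18) were set to it before log2 was taken. Control probe sets (64 of 22810) were left out, and 18196 probe sets with a mean log2 value above the 20th percentile (18.6 as intensity) were tested. The 12 arrays were fitted with 1 mean for each group (limma 3.58.1, R 4.3.3), with an intensity trend in the variance, for 7 contrasts. P-values are two-sided and Benjamini-Hochberg adjusted over all probe sets, called at 0.05. The steps were tested on simulated data. Symbols come from the platform annotation, updated through RefSeq (13436 of 13513 single-symbol probe sets matched); 503 probe sets have several symbols and 8794 none there, and those were not named. The members and lists were chosen with earlier results of these data known. Named genes are those called in a mutant against wild type or in the interaction, and the 5 with the highest mean signal. Some members of the acceptor lists are also named, while the others that passed the filter enter only the counts, medians and figures. Chosen after their values were seen were the genes called in the other comparisons or near a call. So were direct neighbours of called genes and those around the signal limit. Of the lists, brassinosteroid genes had 0 named probe sets and the glucosinolate list held UGT74B1 alone. Alternatives were other scalings, filters, variance models, array weights, a replicate block, an actin covariate and leaving out arrays. Deviations from the group means of arrays with the same replicate number correlated between -0.13 and 0.036 over 18 pairs, so the numbers were not taken to pair the samples.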

Additional observations from a re-analysis of the deposited data

Results flagged for a closer look

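UGT88A1, UGT72E1 and UGT74B1 stand out because the effect of losing SDG8 differed between plants with and without HUB2, by the interaction term of the limma fit. The interactions were 0.86, 0.72 and 0.93 on the log2 scale. These 3 are 7.5% of the 40 genes tested, near the 6.46% of all probe sets called. The call of UGT74B1 was lost in 4 of 23 alternatives, including those without hub2 replicate 1 and without WT replicate 2. UGT88A1 was lower in all 3 sdg8 arrays than in any array of the other groups. For UGT74B1 and UGT72E1 all sdg8 arrays lay below all sdg8hub2 and wild-type arrays, while the hub2 arrays of UGT74B1, at 399, 636 and 429, overlapped sdg8, as did the lowest hub2 array of UGT72E1. RCA, the green tissue marker, also had a called interaction, of -0.40 (adjusted p = 0.0377), and its part in these results was not tested.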

How the results depend on the processing

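In 842 recomputations of 36 calls of single genes under 24 alternative settings, 725 kept direction and threshold, 117 lost the threshold and 0 changed direction, and 10 of the calls held in every alternative run. The direction could not change under other filters or variance models, the replicate block or a fit of the compared groups alone. Nor could it where the array left out belonged to a group outside the comparison. In these settings the log2 difference itself stays the same. Leaving out 1 array at a time gave 3 to 7 changed UGT genes in sdg8, 0 in hub2, and 3 to 8 in sdg8hub2, each against wild type. It gave 7 to 9 in sdg8hub2 against sdg8, 2 to 5 in sdg8hub2 against hub2, 3 to 6 in sdg8 against hub2, and 2 to 5 for the interaction. With sdg8 array 1 alone, added with the values known because sdg8 arrays 2 and 3 correlate less with the other arrays (mean Spearman 0.958 and 0.960, against 0.966 for array 1), the counts were 2 for sdg8 against wild type, 4 for sdg8hub2 against sdg8, 3 for sdg8 against hub2 and 1 for the interaction; the lone array is assumed to vary like the other groups. Array 3 of sdg8hub2, at 0.959, is as low and was left out on its own only. With median centring the count in sdg8hub2 against wild type was 4. Without the variance trend it was 5 in sdg8hub2 against sdg8 and 0 for the interaction. For sdg8hub2 against hub2 it was 3 with the actin covariate and 3 when the fit held those groups alone. The cause was not tested. With the replicate block the counts were 6, 0 and 6 for sdg8, hub2 and sdg8hub2 against wild type, 9, 4 and 6 for the other pairs and 3 for the interaction. The second probe set of a gene could not be tried, as each gene has 1. Low signal limits the 10 genes whose mean signal, taken on the log2 scale, was under 100. Their SD within groups had a median of 0.97 on the log2 scale.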
